A study of Mus musculus with 6 samples.

Results

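The 8 genes described here encode proteases that acinar cells of the pancreas release into the gut: the elastases Cela1, Cela2a and Cela3b, the chymotrypsins Ctrb1 and Ctrl, the carboxypeptidases Cpa1 and Cpb1, and the trypsinogen Prss2. They were taken by symbol: a probe set, the group of short probes that measures a transcript on the array, was included where the array annotation gave it 1 gene symbol and that symbol was a member. All 8 of the 18193 genes measured in this way were found, with 14 of 34945 probe sets. Gene expression was measured on 6 Affymetrix 3' arrays, 1 for each sample of whole pancreas from NMRI mice at postnatal day 15. The 3 Prox1-OE samples carried Jojo-Prox1 together with Ngn3-cre and the 3 controls carried Ngn3-cre alone, so both groups had the Cre driver; the Ngn3 promoter is known for its activity in endocrine progenitors rather than in mature acinar cells. Whether each sample was a different animal is not given in the labels, and the p-values therefore describe the spread among these 6 samples, which may be technical. The question was whether the proteases, whose signal lies at the top of the array's range, differed between the groups, and whether a dimmer probe set of the same gene showed a difference that the brightest one did not.

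Acinar cells store these proteases as inactive precursors in zymogen granules. In the gut, enteropeptidase cuts trypsinogen to trypsin, and trypsin then activates the chymotrypsinogens, proelastases and procarboxypeptidases. Trypsins, chymotrypsins and elastases are serine proteases that cut within a protein chain, and carboxypeptidases are zinc enzymes that remove amino acids from its end. Transcription of acinar enzyme genes depends on PTF1, a complex built on Ptf1a and Rbpjl that binds an E-box paired with a TC-box.

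The sequence just before the start of the genes is shown for Cela3b and Prss2, the 2 members with several probe sets, and for Cela1, an elastase whose 250 bases held all 3 motifs searched. The sequences are from RefSeq (GRCm38.p6), which matched all 8 members, and cover the 250 bases upstream of the annotated start, 5' to 3' on the gene's strand. Capitals mark matches on either strand to the E-box CANNTG, the TC-box TTTCCC and the TATA box TATAAA. Cela1 lies on the minus strand (chr15:100687921-100688170), as does Cela3b (chr4:137430521-137430770), and Prss2 on the plus strand (chr6:41521526-41521775).
Cela1: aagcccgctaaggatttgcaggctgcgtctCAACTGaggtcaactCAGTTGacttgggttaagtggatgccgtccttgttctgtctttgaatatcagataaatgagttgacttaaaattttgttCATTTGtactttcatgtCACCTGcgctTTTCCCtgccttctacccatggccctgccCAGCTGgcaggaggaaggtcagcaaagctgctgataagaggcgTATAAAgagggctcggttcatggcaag
Cela3b: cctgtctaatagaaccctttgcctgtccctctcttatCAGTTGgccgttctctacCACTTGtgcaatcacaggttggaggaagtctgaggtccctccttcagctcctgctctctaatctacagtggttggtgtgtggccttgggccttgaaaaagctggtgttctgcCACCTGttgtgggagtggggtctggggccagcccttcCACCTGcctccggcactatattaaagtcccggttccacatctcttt
Prss2: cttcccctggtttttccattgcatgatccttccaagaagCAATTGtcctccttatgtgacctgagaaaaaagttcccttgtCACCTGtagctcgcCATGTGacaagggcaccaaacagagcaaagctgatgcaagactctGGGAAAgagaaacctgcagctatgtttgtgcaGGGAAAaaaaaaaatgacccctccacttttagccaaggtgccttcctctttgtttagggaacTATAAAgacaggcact
CANNTG was present upstream of 8 of the 8 members and in 66.2% of 32851 such windows in all. TTTCCC was present in 5 of 8 members (Cela1, Cela2a, Ctrb1, Cpa1 and Prss2) against 21.9% of all windows, and TATAAA in 2 of 8 (Cela1 and Prss2) against 12.4%. A match is a description of the letters and not a measured binding site.

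Each of the 14 probe sets lay at or near the top of every array. On all 6 arrays the highest value was that of the Cela3b probe set 1437326_x_at, between 14.71 and 14.92 on the deposited log2 scale. The members read between 14.27 and 14.92, held ranks from 1 to 27 among 45037 probe sets, and lay at most 0.578 below their array's maximum. A mean distance under 0.5 from the maximum was found for 26 probe sets, of which 13 belonged to members. The 14th, Prss2 1417682_a_at, was just outside at 0.503, and the closest one inside was Prss2 1433459_x_at at 0.416. How bright a probe set reads depends on its probes as well as on its transcript, so these ranks do not order the transcripts by abundance.

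No member passed the threshold. Of the 14 probe sets, 13 had a lower mean in Prox1-OE and 1 a higher mean, with log2 differences from -0.11 to 0.0056. The lower ones were 9 of 14 when the arrays were quantile-normalized again or centred on other probe sets near the maximum, where Cpb1 and Prss2 changed sign. Quantile normalization fixed the differences of Cela3b 1437326_x_at and Cela2a at 0, because their ranks were the same in both groups. These probe sets could not count as lower in that run. Both that normalization and the centring take out a shift that the brightest probe sets share, so the fall to 9 was partly built in. In limma's fit over 45037 probe sets 0 of the 14 had an adjusted p under 0.05, against 0.0111% of all probe sets. At an unadjusted p under 0.05 there were also 0 of 14, against 6.15% of all probe sets, and the smallest unadjusted p of a member was 0.242. Within 0.5 of the maximum it was 0 of 26, and from 0.5 to 1 below it 0 of 14. From 1 to 2 below it was 0 of 92, so 6.15% is not the share for probe sets this bright. A lower mean was seen for 54.9% of all probe sets, and for 44.6% with that centring. The median difference was -0.05 over the 14 and -0.02 over all probe sets.

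**Figure D1:**
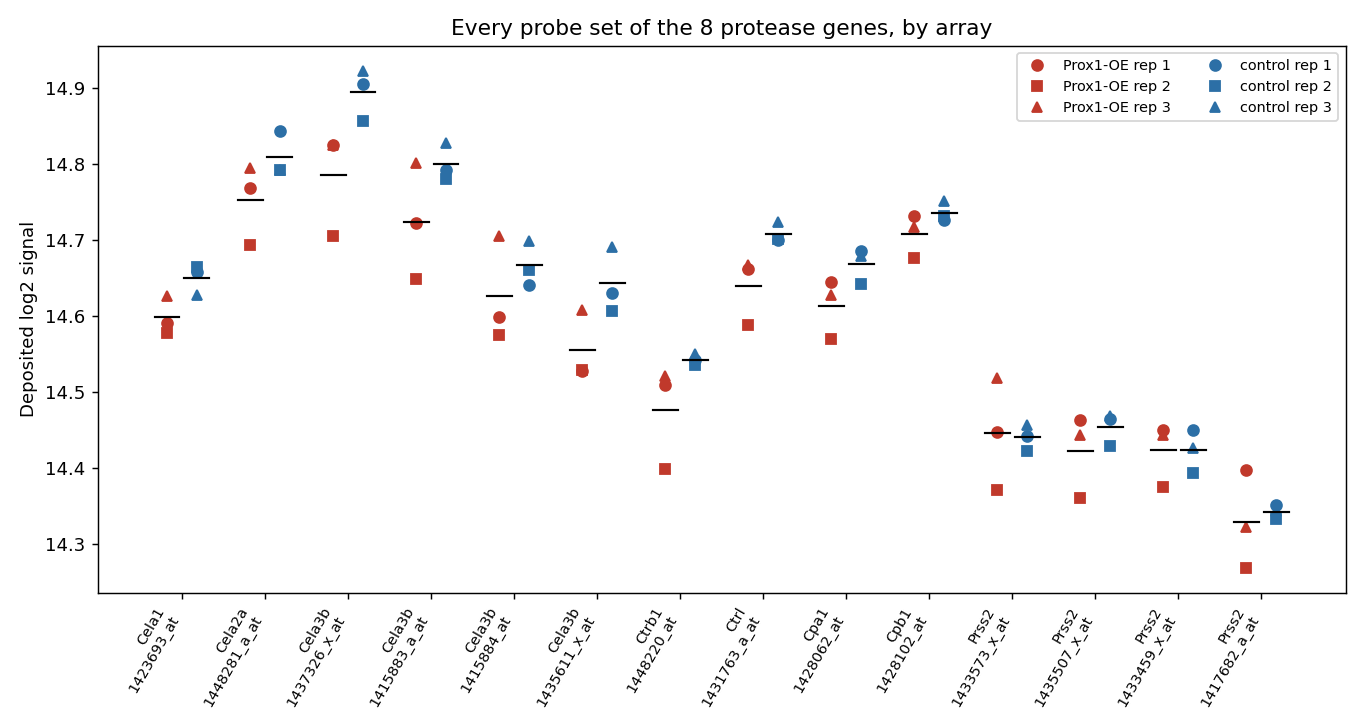
Deposited log2 signal (y) of each of the 14 member probe sets (x) on the 6 arrays, with Prox1-OE in red and control in blue, a marker shape per replicate and black lines at the group means. Values run from 14.27 to 14.92, and Prox1-OE replicate 2 (red square) is the lowest array for 13 of the 14 probe sets.

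Cela3b encodes an elastase-family protease and had 4 probe sets, the brightest of which set the array maximum. That probe set, 1437326_x_at, read 14.82, 14.71 and 14.82 in Prox1-OE and 14.90, 14.86 and 14.92 in control. All Prox1-OE arrays lay below all controls. Its log2 difference, -0.11 ± 0.09 (SE), was the largest in size among the members and did not pass (limma adjusted p = 0.864). The suffix x marks probe sets in which some probes can also bind other transcripts, so its signal may include that of Cela3a.

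The other probe sets of Cela3b were hardly dimmer. The dimmest, 1435611_x_at, lay 0.241 below the maximum on average and read 14.53, 14.53 and 14.61 in Prox1-OE and 14.63, 14.61 and 14.69 in control. The highest Prox1-OE array reached the lowest control, and the difference was -0.09 ± 0.09 (limma adjusted p = 0.893). For 1415883_a_at, the values were 14.72, 14.65 and 14.80 in Prox1-OE and 14.79, 14.78 and 14.83 in control, and the difference was -0.08 ± 0.09. Prox1-OE replicate 3 lay among the controls there. The fourth, 1415884_at, whose suffix marks no cross-binding, read 14.60, 14.58 and 14.70 in Prox1-OE and 14.64, 14.66 and 14.70 in control, with a difference of -0.04 ± 0.09. Prox1-OE replicate 3 was its highest array.

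Prss2, the trypsinogen whose active form starts the cascade, had 4 probe sets, and its groups overlapped on each. Its brightest, 1433573_x_at, read 14.45, 14.37 and 14.52 in Prox1-OE and 14.44, 14.42 and 14.46 in control. The Prox1-OE arrays spread to both sides of the controls, and the difference was 0.0056 ± 0.087 (limma adjusted p = 0.996). The dimmest, 1417682_a_at, read 14.40, 14.27 and 14.32 in Prox1-OE and 14.35, 14.33 and 14.34 in control. Here too the Prox1-OE arrays surrounded the controls, with a difference of -0.01 ± 0.09 (limma adjusted p = 0.989). The remaining probe sets 1435507_x_at and 1433459_x_at spanned 14.36 to 14.47 and 14.38 to 14.45, and differed by -0.03 and -3e-04. As the suffix of 3 of the 4 marks possible binding to other transcripts and trypsinogens form a gene family, the signal may not be that of Prss2 alone. Probe sequences were not examined.

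A test of the difference itself found no dimmer probe set that departed from the brightest of its gene. Within each array the brightest probe set of a gene was subtracted from every other one, for 16752 pairs from 9010 genes, and the groups were compared with limma. None of the 6 member pairs passed at an adjusted p under 0.05 or at an unadjusted p under 0.05, and 0% of all pairs passed after adjustment. For Cela3b the other probe set minus the brightest was 0.02 to 0.07 higher in Prox1-OE than in control, and the 95% interval of the largest, for 1415884_at, was -0.18 to 0.32. For Prss2, taken the same way (other minus brightest, Prox1-OE minus control), the values ran from -0.04 to -0.0059, and the 95% interval of the largest in size, for 1435507_x_at, was -0.28 to 0.21. The gap between brightest and other probe set was 0.0925 at the median and 0.241 at most for the members, against a median of 1.503 over all pairs. The 6 other members had 1 probe set each. The array therefore held no dim probe set of any member, and the pairs compare bright with bright.

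The other elastases had similar small differences. Cela1 read 14.59, 14.58 and 14.63 in Prox1-OE and 14.66, 14.66 and 14.63 in control, and its highest Prox1-OE array and lowest control were equal to 2 decimals. Its difference was -0.05 ± 0.08 (limma adjusted p = 0.943). Cela2a read 14.77, 14.69 and 14.79 in Prox1-OE and 14.84, 14.79 and 14.79 in control, so that 1 Prox1-OE array reached the controls, with a difference of -0.06 ± 0.09 (limma adjusted p = 0.939).

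In both chymotrypsins the lowest value was that of Prox1-OE replicate 2. Ctrb1, a chymotrypsinogen, read 14.51, 14.40 and 14.52 in Prox1-OE and 14.54, 14.54 and 14.55 in control, where the SD of 0.00725 was the smallest of any member and group. Ctrl, the chymotrypsin-like protease, read 14.66, 14.59 and 14.67 in Prox1-OE and 14.70, 14.70 and 14.72 in control. For these 2 genes all Prox1-OE arrays lay below all controls. The differences were -0.07 ± 0.09 for Ctrb1 (limma adjusted p = 0.925) and -0.07 ± 0.08 for Ctrl (adjusted p = 0.917). In all, 4 of 14 probe sets (Cela1, Cela3b 1437326_x_at, Ctrb1 and Ctrl) had no overlap with Prox1-OE lower, against 6.8% of all probe sets and 6 of the 26 within 0.5 of the maximum, which include those 4.

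The carboxypeptidases overlapped between the groups. Cpa1, which removes aromatic and aliphatic residues, read 14.64, 14.57 and 14.63 in Prox1-OE and 14.69, 14.64 and 14.68 in control (difference -0.05 ± 0.08, limma adjusted p = 0.940). Cpb1, which removes basic residues, read 14.73, 14.68 and 14.72 in Prox1-OE and 14.73, 14.73 and 14.75 in control (difference -0.03 ± 0.08, adjusted p = 0.973).

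The 95% intervals of the 14 differences together spanned -0.31 to 0.20 on the log2 scale, which is a change in signal of -19.2% to 15.1%. Whether signals this close to the maximum were saturated cannot be told from the log2 summaries, so these intervals bound the change in signal and not that in the transcripts. The fit draws the spread of each probe set towards that of all probe sets (prior SD 0.136), which is wider than the members' own SDs within groups, 0.00725 to 0.0759. The members' SEs were 0.0826 to 0.0874 in that fit, so the count of 0 at an unadjusted p under 0.05 depends on this prior. With a prior that followed the level of the probe sets and was robust to outliers, the SEs were 0.0405 to 0.0485. Then 1 of 14 had an unadjusted p under 0.05, Cela3b 1437326_x_at at 0.0419, against 6.07% of all probe sets in that fit, with a 95% interval of -0.21 to -0.0048 and a limma adjusted p = 0.819.

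Probe sets of like brightness that are not members also had small differences below 0. Within 0.5 of the maximum, 25 of 26 probe sets had a lower mean in Prox1-OE, which includes 13 of the 13 that are not members, with a median difference of -0.03 for those 13. From 0.5 to 1 below the maximum it was 14 of 14, and from 1 to 2 below 69 of 92. From 2 to 4 below, 52.0% were lower, from 4 to 8 below 44.4%, and at 8 or more 57.2%. The median SD within groups was 0.0436 within 0.5 and 0.142 at 8 or more, and the median absolute difference 0.0337 and 0.0916. The largest absolute difference was 0.109 within 0.5 of the maximum, where it is that of Cela3b, and 3.08 at 8 or more below it. The non-members near the maximum included the lipase-related Pnliprp1, the bile salt-stimulated lipase Cel, the colipase gene Clps, the ribonuclease Rnase1 and the kallikrein Klk1. Also among the 13 were a probe set shared by Try5 and Try4 and 1435012_x_at, which Cela3a and Cela3b share. The latter had the most negative difference of the 13, -0.07, so this set is not wholly separate from the members' genes.

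**Figure D2:**
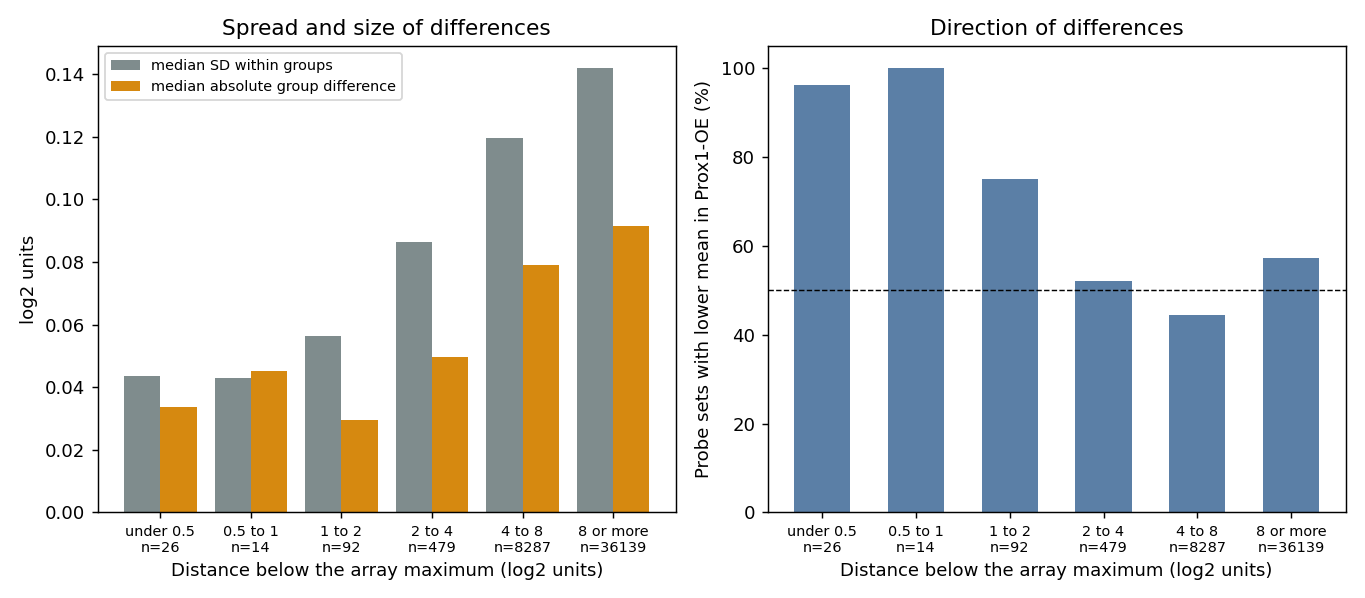
Left, median SD within groups (grey) and median absolute difference between groups (orange), in log2 units, for probe sets classed by mean distance below the array maximum. Right, percent of probe sets in each class whose mean was lower in Prox1-OE, with a dashed line at 50: it is 96.2% within 0.5 of the maximum and 44.4% between 4 and 8.

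The members' values moved together over the arrays. Prox1-OE replicate 2 was the lowest array for 13 of the 14 probe sets and had the lowest maximum, 14.71 against 14.82 to 14.92 on the others. It was also the lowest for 9 of the 13 other probe sets within 0.5 of the maximum and for 58 of 92 from 1 to 2 below. At 8 or more below, it was the lowest for 6699 of 36139. Its median over all probe sets was the lowest as well, 4.37 against 4.39 to 4.42. Relative to the mean of the controls, the mean of the 14 was -0.10 on that array, -0.03 and -0.01 on Prox1-OE replicates 1 and 3, and -0.02 to 0.01 on the controls. The 13 other probe sets within 0.5 of the maximum averaged -0.08 on Prox1-OE replicate 2 and -0.02 to 0.02 elsewhere. Without that array, 11 of the 14 members were lower in Prox1-OE, and the median difference was -0.03 in place of -0.05. Over the 6 arrays the 91 pairs of member probe sets had Pearson correlations of 0.101 to 0.978 (median 0.726, a description over arrays that share the same normalization).

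Spike-in controls, foreign transcripts added to control hybridization, were lowest on another array. The 4 cre probe sets lay 0.862 to 1.42 below the maximum. Relative to the control mean they averaged 0.04, -0.03 and 0.02 in Prox1-OE and 0.14, 0.01 and -0.15 in control, lowest on control replicate 3. The RNA degradation measure for Gapdh, its 3' minus 5' signal, was 0.597 on Prox1-OE replicate 2 and 0.484 to 0.616 on the other arrays. The same measure for beta-actin was lowest on Prox1-OE replicate 2, at 1.26 against 1.27 to 1.40. The part of the arrays' overall level in the members' differences was not tested.

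**Figure D3:**
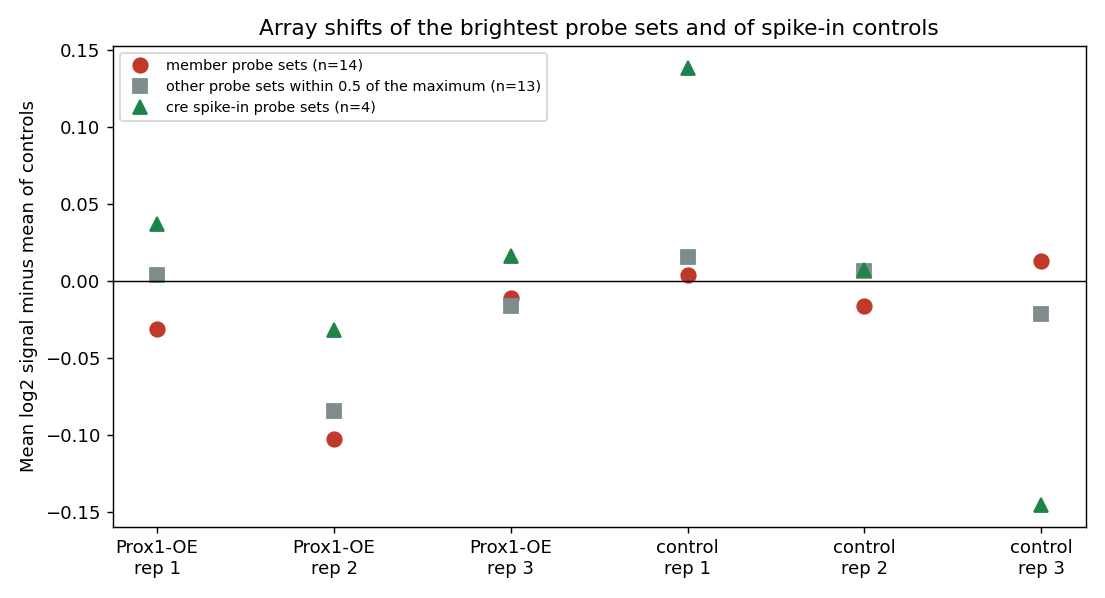
Mean log2 signal on each array minus the mean of the 3 controls, for the 14 member probe sets (red circles), the 13 other probe sets within 0.5 of the maximum (grey squares) and the 4 cre spike-in probe sets (green triangles). The first 2 sets are lowest on Prox1-OE replicate 2 (-0.10 and -0.08), and the spike-ins on control replicate 3 (-0.15).

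Other genes of the exocrine pancreas offered probe sets further from the maximum. Of 20 other digestive protease and enzyme genes listed, 11 were measured by 19 probe sets. Of these, 18 had a lower mean in Prox1-OE, against 54.9% of all probe sets, and 0 passed the threshold. But 6 of the 19 lay within 0.5 of the maximum and 3 from 0.5 to 1 below it, where 25 of 26 and 14 of 14 of all probe sets were lower. The 10 that lay more than 1 below included 9 with a lower mean. In these 10, 0 had an unadjusted p under 0.05, against 6.15% of all probe sets. They include several probe sets each of Klk1 and Pla2g1b, so they are not separate genes. Of the 10, 3 were dim, at 8 or more below the maximum, and 2 of these were lower. They are Pla2g1b 1433948_at and 1433949_x_at and Dnase1, with means of 3.15, 3.29 and 3.33, under the median of every array. Klk1, a kallikrein protease, had bright and dim probe sets. Its 1448107_x_at and 1415837_at were within 0.5 of the maximum and differed by -0.0024 and -0.01, and its 1455977_x_at and 1460050_x_at lay 5.38 and 6.62 below it and differed by -0.06 ± 0.09 and -0.05 ± 0.10. The dim probe sets of Klk1 departed from its brightest by -0.06 (95% interval -0.31 to 0.19) and -0.05 (-0.35 to 0.25). These dim probe sets and the brightest carry the suffix x, so their signal may not be that of Klk1 alone. Pla2g1b, the pancreatic phospholipase A2, had its brightest probe set 2.66 below the maximum, with a difference of -0.23 ± 0.15 (limma adjusted p = 0.840), and the next, 1416626_at, differed by -0.33 ± 0.17 (adjusted p = 0.813). Both were lowest on Prox1-OE replicate 1, at 11.71 and 10.49. Amy1, an amylase, differed by -0.21 ± 0.13 at 5.17 below the maximum.

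Among the proteases outside the members, Prss3, a trypsinogen, differed by -0.04 ± 0.09. Ctrc, the chymotrypsin that regulates trypsinogen, read 12.97, 10.88 and 10.68 in Prox1-OE and 13.37, 13.45 and 10.51 in control. Its arrays fell at a high and a low level in each group, and the difference of -0.93 ± 0.83 did not pass (limma adjusted p = 0.880). Spink1, the trypsin inhibitor of acinar cells, differed by -0.04 ± 0.09, and the serpin gene Serpini2 by -0.05 ± 0.13. Serpina1b, an alpha-1-antitrypsin gene and the largest difference in the exocrine lists, read 6.28, 3.03 and 4.07 in Prox1-OE and 3.24, 3.25 and 3.01 in control on its brightest probe set, 1451513_x_at. Prox1-OE replicate 1 stood above the rest, and the difference of 1.29 ± 0.66 did not pass (limma adjusted p = 0.813).

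Of the 13 zymogen granule and secretion genes 8 had a lower mean and 0 passed, with Gp2, a granule membrane protein, at -0.05 ± 0.10 and Cuzd1 at -0.06 ± 0.08. Of 8 measured acinar transcription factor genes 7 had a lower mean and 0 passed. Over all genes, taken by their brightest probe sets, 53.8% had a lower mean. Ptf1a read 10.36 in Prox1-OE and 10.37 in control (difference -0.0025 ± 0.11), and its partner Rbpjl differed by -0.18 ± 0.14. Bhlha15, a factor of secretory cell maturation, differed by -0.10 ± 0.08 and Gata4 by -0.05 ± 0.16. Nr5a2, a nuclear receptor that drives acinar genes, had 4 probe sets, all lower. Its 1449706_s_at, 7.42 below the maximum, differed by -0.43 ± 0.12, and its brightest probe set by -0.28 ± 0.11 (limma adjusted p = 0.777 and adjusted p = 0.797). In the 5 exocrine lists together, 51 of 68 probe sets had a lower mean, against 54.9% of all probe sets. These include 7 of 7 within 0.5 of the maximum and 6 of 6 from 0.5 to 1 below it, where nearly all probe sets were lower. Of the 55 more than 1 below, 38 were lower, and several probe sets of 1 gene count separately here. At an unadjusted p under 0.05 there were 5 of 68, against 6.15% of all probe sets, and 0 passed after adjustment.

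**Figure D4:**
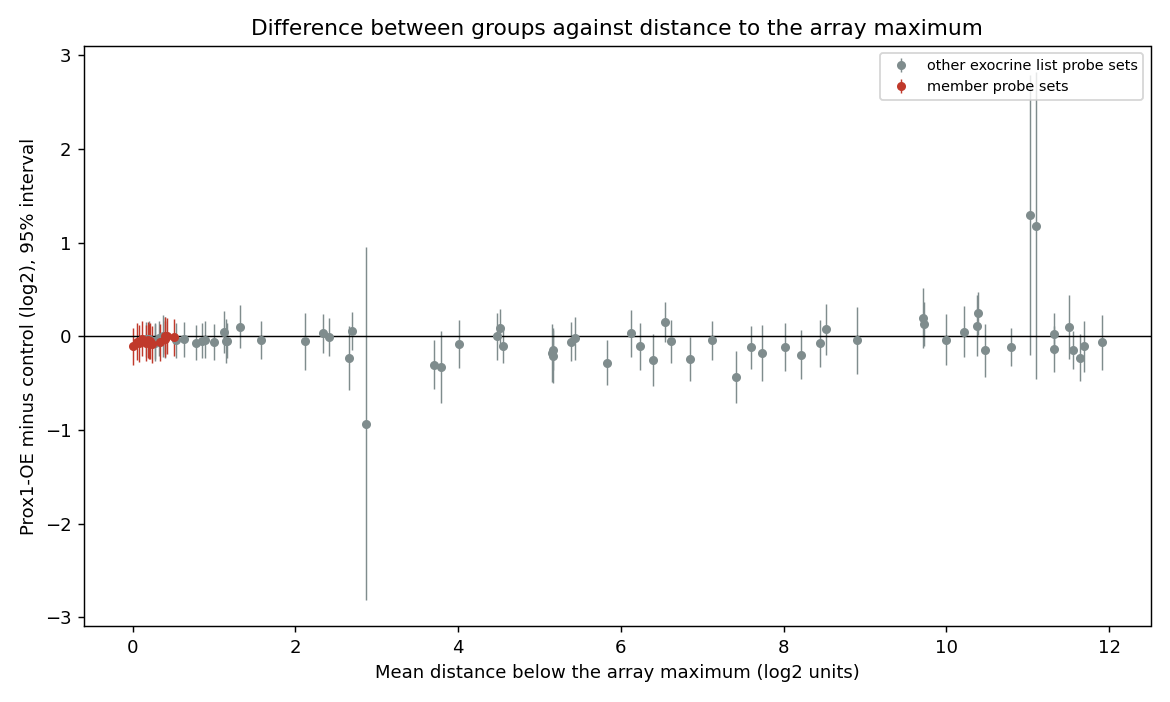
Prox1-OE minus control difference with its 95% interval (log2, y) against mean distance below the array maximum (log2 units, x) for the 14 member probe sets (red) and the 68 probe sets of the other exocrine lists (grey). The members span -0.11 to 0.0056 at the left, and grey points further right spread more widely, from Ctrc at -0.93 to Serpina1b at 1.29.

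Markers of acinar and other cells were read on the same arrays, as the mean over each list's brightest probe sets relative to control. The acinar list (5 genes: Ptf1a, Rbpjl, Bhlha15, Nr5a2 and Cel) read -0.15, -0.15 and -0.06 in Prox1-OE and -0.03 to 0.04 in control. All 5 had a lower mean in Prox1-OE, against 53.8% of all genes, and 0 passed the threshold. This is not a separate count, as Ptf1a, Rbpjl, Bhlha15 and Nr5a2 are among the transcription factors above. Cel is among the enzymes above and lies 0.206 below the maximum. The ductal list (4 genes) and the T cell list (5 genes) were lowest on Prox1-OE replicate 2, at -0.25 and -0.23, as the proteases were. The ductal list read -0.07 and 0.07 on Prox1-OE replicates 1 and 3, and the T cell list 0.56 and 0.08. The controls ran from -0.04 to 0.07 for the ductal list and from -0.07 to 0.08 for the T cell list. Macrophage genes (6) read 0.84, 0.25 and 0.29 in Prox1-OE and -0.13 to 0.14 in control, and B cell genes (4) 2.03, 0.46 and 0.72 against -0.08 to 0.13. Single genes of these lists went both ways: 1 of 6 macrophage, 1 of 4 B cell and 3 of 5 T cell genes had a lower mean in Prox1-OE. In the B cell list Ms4a1 differed by 2.26, Ighm by 1.44, Cd79b by 0.64 and Cd79a by -0.07. Fibroblast genes (5) read 0.45, 0.02 and 0.13 against -0.20 to 0.16, endothelial genes (4) 0.35, 0.07 and 0.19 against -0.47 to 0.25, and adipocyte genes (4) 0.65, 0.55 and -0.31 against -0.33 to 0.20. The islet list (6) read 0.18, -0.13 and -0.17 against -0.32 to 0.33. Chga, the chromogranin of endocrine secretory granules, was the list gene that passed: it fell by 1.51 ± 0.14 on the log2 scale (limma adjusted p = 0.0311).

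In bulk tissue, fewer acinar cells and less RNA per cell cannot be told apart, and the part of these cells in the proteases' differences was not tested. Prox1's brightest probe set read 5.30, 4.98 and 5.31 in Prox1-OE and 5.61, 4.90 and 4.90 in control, so the groups overlapped, and where it lies relative to the transgene's transcript is not given in the sources used here.

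Of 7562 other genes with a mean of at least 6, those whose values over the 6 arrays followed the mean of the members' brightest probe sets most closely were Lxn (Pearson r = 0.994), Pnliprp1 (0.978), Fam53c (0.977), Ift57 (0.976) and Wdr90 (0.9746). Following the mean of the members' 6 other probe sets were Cdc42ep5 (0.997), Rps24 (0.995), Fam214a (0.992), Dsg2 (0.990) and Tead1 (0.990). With 6 arrays and so many genes, correlations of this size are a description only.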

How the data were processed

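The authors deposited 1 log2 value per probe set and array, for 6 arrays. RMA, which corrects background, quantile-normalizes and summarizes probes, and Partek 6.5 come from the submitters' processing notes; their settings are not given in the sources used here. Of 45101 probe sets, 64 Affymetrix controls were left out, and 45037 were tested with lmFit and eBayes of limma 3.58.1 (R 4.3.3), two-sided, with no covariate and no filter, and Benjamini-Hochberg adjustment over all of them at 0.05. Symbols came from the platform annotation: 34945 probe sets had 1, 932 several and 9160 none. All 14 member probe sets matched RefSeq by gene ID with the same symbol. Distance is the array's highest log2 value minus the probe set's. The fit was tested on simulated data. The genes named were every member, a panel of exocrine genes, genes of the exocrine lists past the threshold (there were none) and, for each of 2 mean profiles of the members, the 5 genes most like it by Pearson correlation among those with a mean of at least 6. Amy1, Rnase1, Serpina1b, Chga and the probe set shared with Cela3a fall outside that rule and were named after their values were seen. The members and lists were chosen with earlier results of these data known. The number of arrays limits the precision. Same-numbered arrays had correlated deviations of 0.06, 0.17 and 0.10 from their group means.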

Additional observations from a re-analysis of the deposited data

How the results depend on the processing

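Of the members' probe sets, 0 passed an adjusted p of 0.05 under any alternative run, and 0 of the within-gene pairs did. Of 206 alternative values of single differences, 191 kept their direction (or were 0) and their side of the threshold, and 15 changed sign, all of them at Prss2 or Cpb1. Quantile normalization again gives probe sets of equal rank equal values, so the difference became 0 for Cela3b 1437326_x_at, of 1 rank on every array, and for Cela2a, whose ranks were the same set in both groups. It made Cpb1 0.0192 and Prss2 1433459_x_at 0.0127, and 9 of 14 were lower. The members held ranks from 1 to 27, so a shift shared by the top of an array is taken out of all 14 in this way. Median centring gave Prss2 1433459_x_at 0.0182 and 1417682_a_at 0.00567. Centring on the 13 other probe sets near the maximum, chosen after the data were seen, left 9 of 14 lower, from -0.08 to 0.04. It gave Cpb1 0.00492 and Prss2 1435507_x_at 0.000887, 1433459_x_at 0.0321 and 1417682_a_at 0.0195. Those 13 include the probe set shared by Cela3a and Cela3b. The mean of its probe sets gave Prss2 -0.00975. Without 1 array, Prss2 1433459_x_at ran from -0.0153 to 0.0234, 1417682_a_at from -0.0467 to 0.0174 and 1433573_x_at from -0.0308 to 0.0430.

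Over all probe sets 5 passed, 2 with the replicate number as a block, 0 to 8 without 1 array (0 without each of the Prox1-OE arrays in turn, 1 without control replicate 1 or 2, and 8 without control replicate 3), and 2770 at an unadjusted p of 0.05. The replicate block changed no other call. Not every same-numbered correlation was over 0.1, so the number was not taken to pair the arrays.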

Other observations

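A probe set shared by Cela3a and Cela3b, 1435012_x_at, was not used for a gene because its annotation gives several symbols. It lay 0.0228 below the array maximum on average and read 14.82, 14.70 and 14.82 in Prox1-OE and 14.86, 14.83 and 14.87 in control. The groups did not overlap, the log2 difference was -0.07 ± 0.09 (SE), and it did not pass (limma adjusted p = 0.914).

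All 18 spike-in probe sets for bioB, bioC, bioD and cre were lowest on control replicate 3, while 13 of the 14 member probe sets were lowest on Prox1-OE replicate 2.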
